A study of Mus musculus with 6 samples.

Results

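Transcripts of 9 genes that encode enzymes of the tricarboxylic acid cycle were compared between livers of mice with and without induced lipophagy, the autophagic disposal of lipid droplets. The genes were taken by symbol (Cs, Idh3a, Idh3b, Idh3g, Ogdh, Dlst, Suclg1, Fh1 and Mdh2) from the 24346 rows of the deposited table, and all 9 were found once each. The table holds FPKM, that is fragments per kilobase of a transcript, relative to all mapped fragments of the library, in 3 control and 3 lipophagy-induced livers. All 6 mice were C57BL/6 males (C57BL/6J in the methods) that received CDAHFD, a high-fat diet without choline and with amino acids in place of protein, from the age of 8 weeks for 6 weeks as a model of steatohepatitis, then 1 injection of adeno-associated virus serotype 8 and normal chow for 2 weeks. In both groups the virus carried the lipid droplet-targeting sequence (LDTS) of perilipin 1 under a thyroxine-binding globulin promoter, which is active in hepatocytes. In the lipophagy group this sequence was fused to an engineered LC3-interacting region (LDTS-eLIR), and in the control group to a mutant form of that region (LDTS-LIR mut), so that no liver was free of the droplet-targeting part.

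The cycle runs in the mitochondrial matrix and oxidises the acetyl group of acetyl-CoA, which in liver comes from pyruvate and from fatty acid β-oxidation. It hands electrons to the respiratory chain as NADH and, through succinate dehydrogenase, to ubiquinone. In hepatocytes the cycle also supplies citrate for lipid synthesis, malate for gluconeogenesis and carbon for amino acid metabolism. Citrate synthase (Cs) forms citrate, and the NAD-dependent isocitrate dehydrogenase (Idh3a, Idh3b, Idh3g) yields α-ketoglutarate. The α-ketoglutarate dehydrogenase complex (Ogdh, Dlst, Dld), succinyl-CoA ligase (Suclg1 with Sucla2 or Suclg2), succinate dehydrogenase (Sdha to Sdhd), fumarate hydratase (Fh1) and malate dehydrogenase (Mdh2) complete the turn.

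Liver identity was checked first. All 8 hepatocyte markers examined, among them Alb and Ttr, were detected in every liver, and their summed level was 67946 to 73829 FPKM in control livers and 82883 to 105286 FPKM in lipophagy livers. The estimated depth was 23.7 to 33.8 M fragments in control livers and 22.7 to 24.5 M in lipophagy livers, and each of the 9 genes was covered by 737 to 11224 estimated fragments per liver, so counting error was small for all of them. The FPKM of all genes summed to 622696, 657300 and 681138 in control livers 1, 2 and 3 and to 782392, 734436 and 709993 in lipophagy livers 1, 2 and 3. This sum was thus higher in every lipophagy liver than in every control liver, by 13.5% between the group means. A gene that held its share of all FPKM would therefore appear higher in the lipophagy group, and changes of the cycle enzymes are also given below with the livers scaled to the same sum.

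As a group, 7 of the 9 genes had a higher mean after lipophagy induction and 2, Cs and Ogdh, a lower one. The 9 genes summed to 806 ± 26.5 FPKM (SD, n = 3) in control livers and 955 ± 53.8 FPKM (SD, n = 3) in lipophagy livers, 18.5% more. The genes with the larger differences were Fh1, Suclg1, Idh3b and Idh3g, for which all 3 lipophagy livers lay above all 3 control livers. For Mdh2, Dlst, Idh3a, Cs and Ogdh the groups overlapped. Values were tested as log2(FPKM + 1) with limma over the 11493 genes that averaged 0.5 FPKM or more, all 9 included. None of the 9 passed the Benjamini-Hochberg adjustment over all tested genes (adjusted p from 0.137 to 0.834, limma), where 3 genes, 0.0261%, did. At an unadjusted p below 0.05 the limma fit held 4 of the 9 as higher and 0 as lower, against 11.5% of all tested genes that were higher. Groups that did not overlap, higher in lipophagy, were found for 4 of 9, against 15.4% of all tested genes, and 0 of 9 were separated in the lower direction, against 10.8%. The median log2 change was 0.19 over the 9 genes and 0.020 over all tested genes. A positive log2 change was found for 7 of the 9 and for 54.5% of all tested genes.

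**Figure D1:**
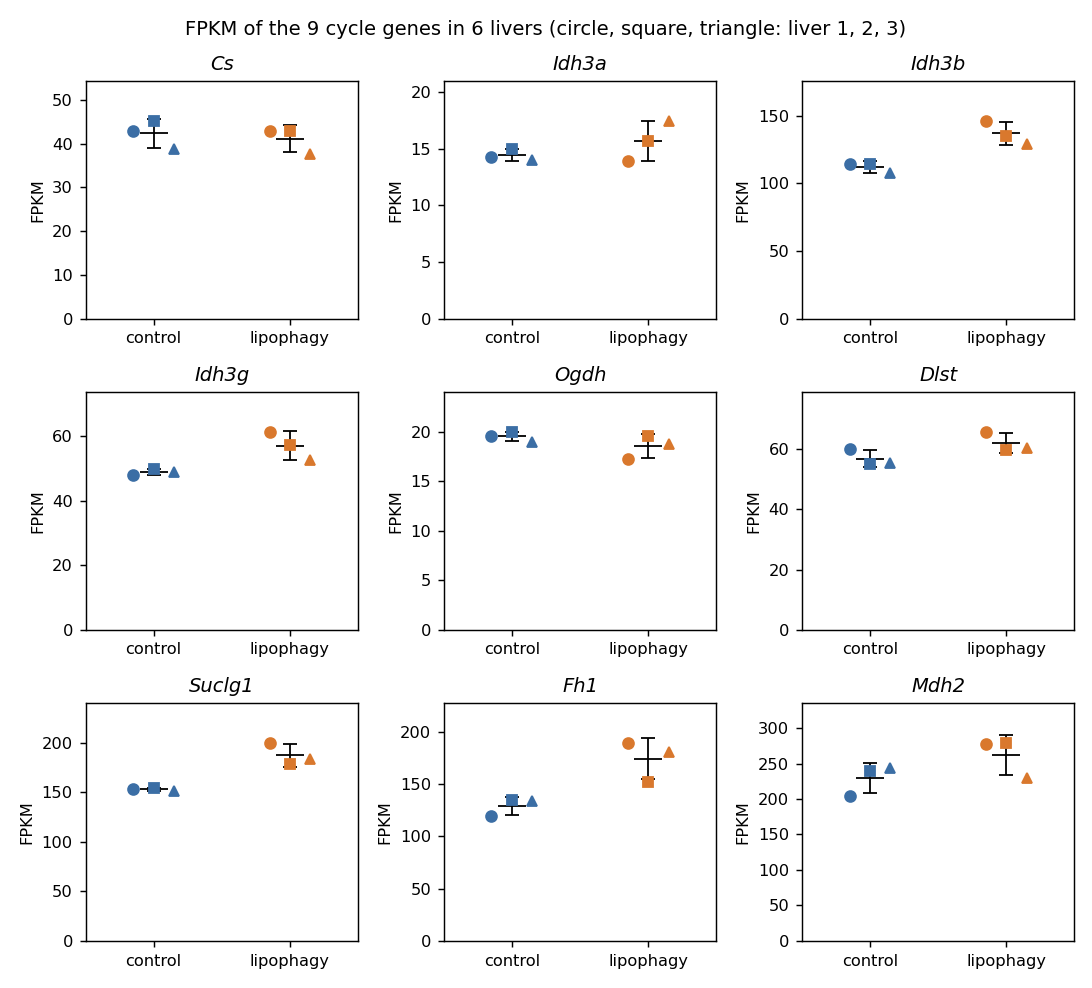
FPKM of each of the 9 genes (y axis, from 0) in control and lipophagy livers (x axis). Circles, squares and triangles are livers 1, 2 and 3 of each group, and black bars give the mean ± SD. Idh3b, Idh3g, Suclg1 and Fh1 are separated between the groups, and the other 5 genes overlap.

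The choice of scaling moved some of these values. Scaling each liver to the same median left the median of the 9 at 0.19, with 7 of 9 higher. With each liver scaled to the same sum of FPKM, the median log2 change of all tested genes moved to -0.12. The 9 genes had a median of 0.0068 on this scale, and 5 of 9 were higher, against 2595 of the 11493 tested genes. Relative to the median of all tested genes, the median of the 9 was 0.17 as deposited and 0.13 after this scaling, and on both scales the 7 genes that were higher lay above that median and Cs and Ogdh below it. With quantile normalization the median of the 9 was 0.031 (0.024 relative to all tested genes). There 6 of 9 were higher, against 5978 of the 11493 tested genes. Dlst also lay below the median of all tested genes (-0.027 relative to it). Of the 4 genes with an unadjusted p below 0.05 as deposited, Fh1 alone kept it with the same sum and with quantile normalization (limma). Among all tested genes at an unadjusted p below 0.05 (limma), 1327 were higher and 916 lower as deposited, 745 and 899 with quantile normalization, and 236 and 2504 with the same sum.

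Sequences before the transcription start are shown for the 2 genes with the highest log2 change (Fh1 and Suclg1) and the 2 with the lowest (Ogdh and Cs). They are the 120 bases up to the start, 5′ to 3′ on the gene's strand, from RefSeq on GRCm38.p6, which is the mm10 build named in the submitters' processing notes. Capitals mark the SP1 motif GGGCGG or its reverse complement. Fh1 lies at chr1:175601378-175625635 (minus strand), Suclg1 at chr6:73248505-73276907 (plus), Cs at chr10:128337727-128362482 (plus) and Ogdh at chr11:6291597-6359094 (plus). The other 5 are Idh3a at chr9:54586511-54604662 (plus), Idh3b at chr2:130279309-130284451 (minus), Idh3g at chrX:73778963-73786897 (minus), Dlst at chr12:85110822-85134091 (plus) and Mdh2 at chr5:135778649-135790386 (plus). The windows printed are chr1:175625636-175625755, chr6:73248385-73248504, chr10:128337607-128337726 and chr11:6291477-6291596, the last of them the window of the most upstream of 6 Ogdh starts.
Fh1: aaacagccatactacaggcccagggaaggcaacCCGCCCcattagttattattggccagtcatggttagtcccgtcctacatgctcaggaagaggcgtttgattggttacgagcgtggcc
Suclg1: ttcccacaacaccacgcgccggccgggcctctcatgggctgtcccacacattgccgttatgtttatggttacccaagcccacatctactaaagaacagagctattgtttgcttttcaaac
Cs: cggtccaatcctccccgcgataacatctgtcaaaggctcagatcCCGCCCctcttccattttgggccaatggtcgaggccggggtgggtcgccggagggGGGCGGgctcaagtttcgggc
Ogdh: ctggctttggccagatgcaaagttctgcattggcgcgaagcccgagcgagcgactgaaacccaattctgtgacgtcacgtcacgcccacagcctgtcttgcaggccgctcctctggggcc

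Over the 250 bases before each start, 8 of the 9 genes had a window, Idh3a being the exception. GGGCGG on either strand was found for 5 of 8 (Cs, Ogdh, Dlst, Fh1 and Mdh2) and in 6 of the 13 windows of all 8, against 32.7% of all 32851 windows. Ogdh had 6 of the 13 windows, and held GGGCGG only in downstream ones, not in the window of its most upstream start. The NRF1 core CGCATGCG was found for Ogdh alone, at the same site in 2 of its downstream windows, which overlap, and in 1.55% of all windows. The ETS motif CCGGAAGT (2.88% of all windows) and the ERRα motif TCAAGGTCA (0.387%) were found for 0 of 8. All 4 were searched on both strands. Of the 5 genes with GGGCGG only Fh1 was separated between the groups, and the 3 without it (Idh3b, Idh3g and Suclg1) were all separated, a description of 8 genes that says nothing of SP1 itself.

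The 4 genes that were separated differed in size of change. Fumarate hydratase converts fumarate to malate, and Fh1 also supplies the cytosolic form of the enzyme. Fh1 was at 120, 135 and 134 FPKM in control livers 1, 2 and 3 and at 190, 152 and 181 FPKM in lipophagy livers 1, 2 and 3. Lipophagy liver 2 lay nearest to the controls, and livers 1 and 3 were further above them. The group means differed by 34.6%, a log2 change of 0.42 with an SE of 0.11 (adjusted p = 0.137, limma). The change was 0.24 with the same sum of FPKM and 0.24 with quantile normalization, so Fh1 was higher under every scaling tried, and it ranged from 0.36 to 0.52 with each liver left out in turn.

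Suclg1 encodes the α subunit that both forms of succinyl-CoA ligase share, the enzyme of substrate-level phosphorylation in the cycle. It was at 153, 154 and 151 FPKM in control livers and at 200, 178 and 183 FPKM in lipophagy livers. The control livers were nearly level, and the spread lay within the lipophagy group, with liver 1 on top. The log2 change was 0.29 with an SE of 0.079 (adjusted p = 0.154, limma), and 0.11 with the same sum of FPKM.

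The NAD-dependent isocitrate dehydrogenase is built of a catalytic α subunit (Idh3a) with β and γ subunits (Idh3b, Idh3g), and catalyses a regulated step of the cycle. Idh3b was at 115, 115 and 107 FPKM in control livers and at 146, 135 and 129 FPKM in lipophagy livers, with no overlap. Its log2 change was 0.28 with an SE of 0.082 (adjusted p = 0.161, limma), and 0.10 with the same sum. Exons of Idh3b overlap those of Nop56 on the opposite strand, and whether fragments were assigned by strand is not given in the sources used here.

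Idh3g was at 47.9, 49.7 and 48.9 FPKM in control livers and at 61.3, 57.4 and 52.5 FPKM in lipophagy livers. The controls lay close together and lipophagy liver 3 stood nearest to them. The log2 change was 0.22 with an SE of 0.082 (adjusted p = 0.219, limma), and 0.038 with the same sum. Its unadjusted p (limma) was below 0.05 in the fit of all livers and without lipophagy liver 3, and above it with any other liver left out, with the replicate number as a block, with the same sum and with quantile normalization.

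Idh3a, in contrast, was at 14.28, 14.997 and 14.04 FPKM in control livers and at 13.9, 15.7 and 17.5 FPKM in lipophagy livers. Lipophagy liver 1, the liver with the highest Idh3b and Idh3g, had the lowest Idh3a of all 6 livers. The log2 change was 0.11 (95% interval from -0.11 to 0.32, adjusted p = 0.540, limma) and it became -0.064 with the same sum of FPKM. It was 0.031 without lipophagy liver 3 and reached 0.19 when lipophagy liver 1 was left out. The ratio of Idh3a to Idh3b within a liver, which multiplying a liver by 1 factor does not alter, was at 0.125, 0.131 and 0.131 in control livers and at 0.0950, 0.116 and 0.135 in lipophagy livers. The groups overlapped in this ratio (two-sided exact permutation test, p = 0.4), and the log2 difference ran from -0.30 without lipophagy liver 3 to -0.039 without lipophagy liver 1. The ratio of Idh3b to Idh3g was 2.30 ± 0.0975 (SD, n = 3) and 2.40 ± 0.0499 (SD, n = 3), also with overlap, so the β and γ transcripts kept nearly the same proportion in all 6 livers.

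Cs and Ogdh did not follow the genes above. Citrate synthase condenses acetyl-CoA with oxaloacetate, and its activity is a common measure of mitochondrial content. Cs was at 42.9, 45.3 and 38.9 FPKM in control livers and at 43.0, 43.0 and 37.6 FPKM in lipophagy livers. The third liver was the lowest of each group, and the ranges lay almost on top of each other. The log2 change was -0.040 (95% interval from -0.25 to 0.17, adjusted p = 0.834, limma), and it became positive when control liver 2 (0.0087) or lipophagy liver 3 (0.024) was left out.

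Ogdh encodes the E1 component of the α-ketoglutarate dehydrogenase complex, which decarboxylates α-ketoglutarate. It was at 19.58, 20.02 and 19.03 FPKM in control livers and at 17.2, 19.6 and 18.8 FPKM in lipophagy livers. Lipophagy liver 1 was the lowest, lipophagy liver 2 lay within the controls, and liver 3 lay just under them. The log2 change was -0.074 (95% interval from -0.25 to 0.11, adjusted p = 0.619, limma), -0.025 when lipophagy liver 1 was left out and -0.11 without lipophagy liver 2. With the same sum of FPKM the changes of Cs and Ogdh were -0.22 and -0.25, and both then had an unadjusted p below 0.05 (limma). With this scaling 21.8% of all tested genes were lower at that p, so 2 of 9 is near the background. Fh1 passed in the other direction, against 2.05% of all tested genes.

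Dlst encodes the E2 component of the same complex, which carries the lipoyl group. It was at 60.2, 55.0 and 55.5 FPKM in control livers and at 65.8, 59.7 and 60.5 FPKM in lipophagy livers. Control liver 1 lay between lipophagy livers 2 and 3, and the log2 change of 0.12 became 0.16 without it and 0.079 without lipophagy liver 1. The 95% interval was from -0.062 to 0.31 (adjusted p = 0.416, limma), and the direction turned with the same sum of FPKM (-0.058) and with quantile normalization (-0.020).

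Mdh2, which regenerates oxaloacetate in the matrix and takes part in the malate-aspartate shuttle, was at 205, 240 and 244 FPKM in control livers and at 278, 279 and 230 FPKM in lipophagy livers. Lipophagy liver 3 lay below control livers 2 and 3. The log2 change was 0.19 (95% interval from -0.069 to 0.45, adjusted p = 0.375, limma), and 0.0068 with the same sum. It was 0.11 without control liver 1 and 0.28 without lipophagy liver 3, and only in the latter fit was the unadjusted p below 0.05 (limma).

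**Figure D2:**
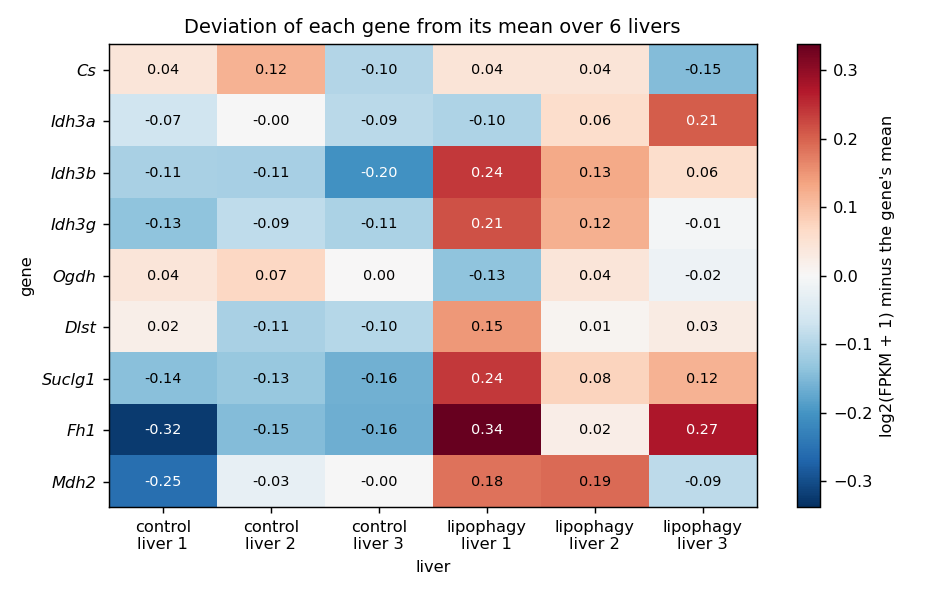
Deviation of log2(FPKM + 1) of each gene (rows) from its mean over the 6 livers (columns), red where higher and blue where lower. Idh3b, Idh3g, Dlst, Suclg1 and Fh1 were highest in lipophagy liver 1, while Idh3a and Ogdh were lowest there.

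Across livers, 5 of the 9 genes had their highest value in lipophagy liver 1, 2 (Cs and Ogdh) in control liver 2, 1 (Mdh2) in lipophagy liver 2 and 1 (Idh3a) in lipophagy liver 3. The mean deviation of the 9 genes from their own means came to -0.10, -0.047 and -0.10 on the log2 scale in control livers 1, 2 and 3, while lipophagy livers 1, 2 and 3 were at 0.13, 0.076 and 0.047. Over the 6 livers the deviation of Idh3b followed that of Suclg1 (Pearson r = 0.97) and Idh3g (0.95), and that of Suclg1 followed Fh1 (0.94). Those of Cs (-0.063) and Idh3a (0.17) had little relation to the mean of the other 8 genes, and that of Ogdh ran against it (-0.68). These are descriptions over 6 livers that share a group difference and a scaling. The log2 sum of all FPKM had an r of 0.94 with Idh3g, 0.90 with Suclg1, 0.88 with Fh1 and -0.75 with Ogdh over the same livers, and the changes with this sum made equal are those given above. Outside the 9, the tested genes whose pattern was most like the mean deviation were Cebpzos, Galm, Fbxo7, Gm5801 and Stx8, with r from 0.995 to 0.998 over the 6 livers. Their log2 changes were 0.14 to 0.31, and each was tested within the same fit without passing the adjustment (adjusted p from 0.135 to 0.293, limma).

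FPKM is per length, so levels of the 9 genes can be ordered. Mdh2 had the highest mean over the 6 livers (246 FPKM), followed by Suclg1 (170), Fh1 (152), Idh3b (125), Dlst (59.5), Idh3g (52.9), Cs (41.8), Ogdh (19.04) and Idh3a (15.1). The ranges over livers did not touch between Mdh2 and Suclg1, between Idh3b and Dlst, between Idh3g and Cs, or between Cs and Ogdh. Neighbours whose ranges overlapped were Suclg1 with Fh1, Fh1 with Idh3b, Dlst with Idh3g, and Ogdh with Idh3a. The low transcripts therefore included Ogdh and Idh3a, which encode catalytic subunits of regulated steps.

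Further enzymes of the cycle were also higher in the lipophagy livers. All 8 examined (Idh2, Dld, Sucla2, Suclg2, Sdha, Sdhb, Sdhc and Sdhd) had a positive log2 change, with a median of 0.30, and the groups did not overlap for 6, all but Idh2 and Suclg2, against 15.4% of all tested genes. At an unadjusted p below 0.05 the limma fit held the same number, 6 of 8, against 11.5%. None passed the adjustment (adjusted p from 0.134 to 0.403, limma). With the same sum of FPKM 6 of 8 were higher, against 2595 of the 11493 tested genes, and Idh2 (-0.025) and Suclg2 (-0.014) turned. Dld and Sdhd then still had an unadjusted p below 0.05 (limma), and the other 6 did not. At that p 2.05% of all tested genes were higher with the same sum. Idh2 encodes the NADP-dependent isocitrate dehydrogenase of the matrix and Suclg2 the GTP-forming β subunit.

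**Figure D3:**
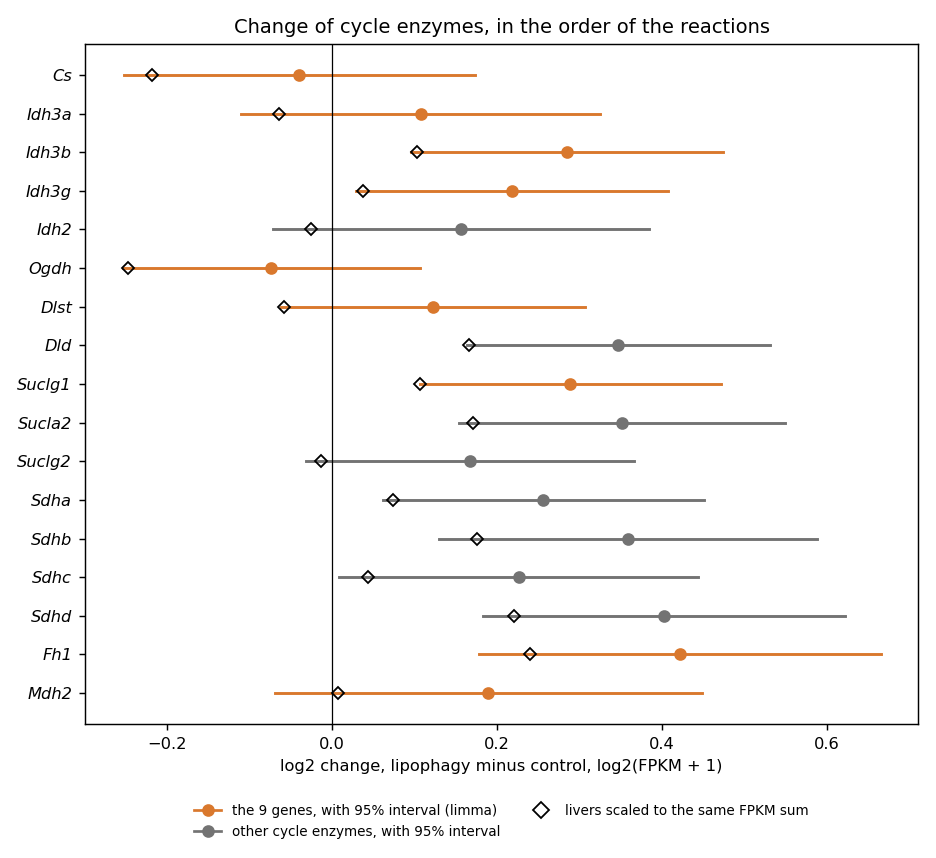
Log2 change, lipophagy minus control (x axis), of the 9 genes and 8 further cycle enzymes in the order of the reactions (y axis). Filled circles with bars are the limma estimate and its 95% interval, in orange for the 9 genes and grey for the 8, and open diamonds give the change with livers scaled to the same sum of FPKM. Cs and Ogdh lie left of 0 on both scales, and Idh3a, Dlst, Idh2 and Suclg2 cross 0 between the scales.

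The 4 subunits of succinate dehydrogenase, which is also respiratory complex II, had log2 changes of 0.26 (Sdha), 0.36 (Sdhb), 0.23 (Sdhc) and 0.40 (Sdhd). With the same sum of FPKM these were 0.074, 0.18, 0.044 and 0.22, and Sdhc was at 0.15 without lipophagy liver 1. Sdhd was at 180, 177 and 177 FPKM in control livers and at 266, 224 and 219 FPKM in lipophagy livers, the largest log2 change among these 8 enzymes. Dld, the E3 component shared by several dehydrogenase complexes, was at 57.5, 61.0 and 57.4 FPKM and at 80.4, 72.0 and 72.2 FPKM, a log2 change of 0.35 with an SE of 0.080 (adjusted p = 0.134, limma) and 0.17 with the same sum. Sucla2, the ATP-forming β subunit, had a log2 change of 0.35 with an SE of 0.086 (adjusted p = 0.135, limma) and 0.17 with the same sum.

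Ratios of partner enzymes within a liver were compared for 12 pairs. With 3 livers against 3 the two-sided exact permutation test cannot give a p below 0.1, so no pair could pass (adjusted p from 0.4 over the 12 pairs). The ratio of Ogdh to Dld was at 0.341, 0.328 and 0.332 in control livers and at 0.214, 0.272 and 0.260 in lipophagy livers. The change in the geometric mean ratio was -25.8%, without overlap (exact permutation test, p = 0.1). The ratio of Dlst to Dld changed by -14.6%, from 1.05, 0.902 and 0.968 in control livers to 0.819, 0.829 and 0.838 in lipophagy livers, again without overlap. Both ratios share Dld as denominator, and the direct ratio of Ogdh to Dlst overlapped between the groups (exact permutation test, p = 0.2).

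Mdh2 relative to its cytosolic counterpart Mdh1 was at 0.600, 0.663 and 0.689 and at 0.4997, 0.591 and 0.519, a change of -17.6%. This ratio was separated between the groups as well (exact permutation test, p = 0.1). The other 9 pairs overlapped. How often other pairs of genes are separated was not computed, so the 3 of 12 stand without a background. Among the 9 pairs that overlapped, Suclg1 to Sucla2 was at 2.68 ± 0.0954 (SD, n = 3) and 2.56 ± 0.160 (SD, n = 3). Fh1 to Mdh2 was at 0.565 ± 0.0184 (SD, n = 3) and 0.672 ± 0.122 (SD, n = 3), with lipophagy liver 2 just below the controls and livers 1 and 3 above them. The log2 difference of the latter ratio, 0.23, was 0.38 without lipophagy liver 2 and 0.11 when lipophagy liver 3 was left out.

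**Figure D4:**
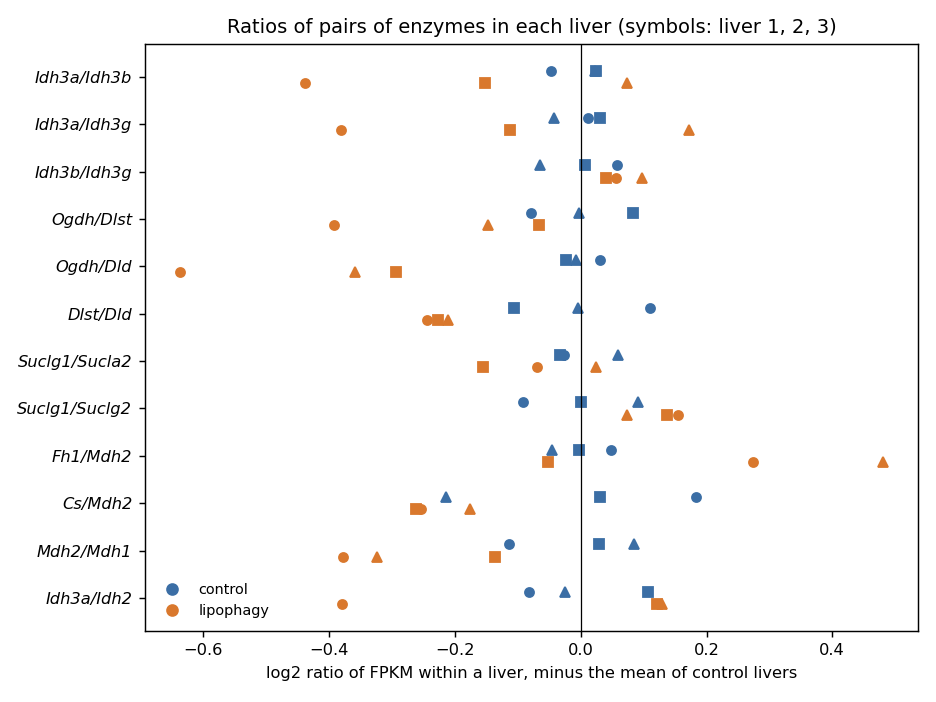
Log2 ratio of FPKM within a liver (x axis), set to the mean of control livers, for 12 pairs of enzymes (y axis). Blue symbols are control livers and orange symbols lipophagy livers (circle, square, triangle for livers 1, 2 and 3). Ogdh/Dld, Dlst/Dld and Mdh2/Mdh1 are separated, with every lipophagy liver lower.

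Around the cycle, genes of pyruvate entry were mostly higher. Of 13 listed, 10 were tested, 9 were higher and 5 of these did not overlap, against 15.4% of all tested genes. Pdhb, the E1β subunit of pyruvate dehydrogenase, showed the largest difference, from 82.4 ± 8.43 to 125 ± 20.4 FPKM (SD, n = 3 each), a log2 change of 0.59 with an SE of 0.13 (adjusted p = 0.134, limma) and 0.41 with the same sum. Pdk4, a kinase that inactivates pyruvate dehydrogenase, was the gene with the lowest change among the 10 tested (-0.052). The list holds enzymes and their inhibitors alike, and the kinases Pdk1 (0.43, overlapping groups) and Pdk2 (0.20, separated) were among the 9 that were higher. Of the 4 genes of lipoic acid synthesis and transfer, on which Dlst depends, all were higher, from Lipt1 (0.031) to Lias (0.30). Genes of reactions that bring carbon into the cycle or withdraw it were higher in 8 of 9, Pcca most (0.35). The 1 that was lower (-0.24), Pck2, encodes mitochondrial phosphoenolpyruvate carboxykinase, which withdraws oxaloacetate.

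Cytosolic counterparts were higher in 6 of 6, from Aco1 (0.039) to Acly (0.57), the latter with overlapping livers. Mdh1 was at 352 ± 10.3 and 490 ± 58.4 FPKM (SD, n = 3 each), a log2 change of 0.47 with an SE of 0.10 (adjusted p = 0.134, limma) and 0.29 with the same sum. Carriers of cycle intermediates and partners were higher in 6 of 6, from Slc25a22 (0.11) to Slc25a10 (0.24). Regulators of mitochondrial biogenesis were higher in 9 of 9, from Gabpa (0.044) to Tfb2m (0.28), with a median of 0.14. Transcripts of proteins commonly used as a measure of mitochondrial content, such as the porins and prohibitins, were higher in 10 of 10, from Vdac2 (0.078) to Phb2 (0.32), with a median of 0.23. With the same sum of FPKM 6 of 10 genes of pyruvate entry were higher, 3 of 4 of lipoic acid synthesis, 5 of 9 of carbon entry and withdrawal, 5 of 6 cytosolic counterparts, 5 of 6 carriers, 4 of 9 biogenesis regulators and 7 of 10 of mitochondrial content. The medians of these lists then lay between -0.0091 (biogenesis regulators) and 0.12 (cytosolic counterparts). Of the 11493 tested genes, 2595 were higher on that scale, and 54.5% as deposited. None of the genes in these lists passed the adjustment.

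Transcript length moved with the changes. Over the 11410 tested genes with a transcript in GENCODE M21, the median log2 change was 0.11 in the shortest quintile (up to 1582 bases), 0.066, 0.024 and -0.0073 in the next 3, and -0.045 in the longest (from 4630 bases). Idh3g, Suclg1 and Mdh2 were in the shortest quintile and Idh3b in the next, whereas Ogdh, at 4127 bases, was the longest of the 9. Over the 9 genes the Spearman correlation of log2 change with length was -0.58, and over all tested genes -0.24, both across genes, which are not independent replicates. Length did not order all of the 9, since Fh1 (2636 bases), Cs (2926 bases), Dlst (2764 bases) and Idh3a (2403 bases) were in the same quintile with changes from -0.040 to 0.42. With the trend of each liver on length and GC content taken off, Fh1 had a log2 change of 0.40, Idh3b 0.23, Suclg1 0.23, Idh3g 0.15, Ogdh -0.027 and Cs -0.040. The median of the 9 was then 0.14, and 7 of 9 remained higher.

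**Figure D5:**
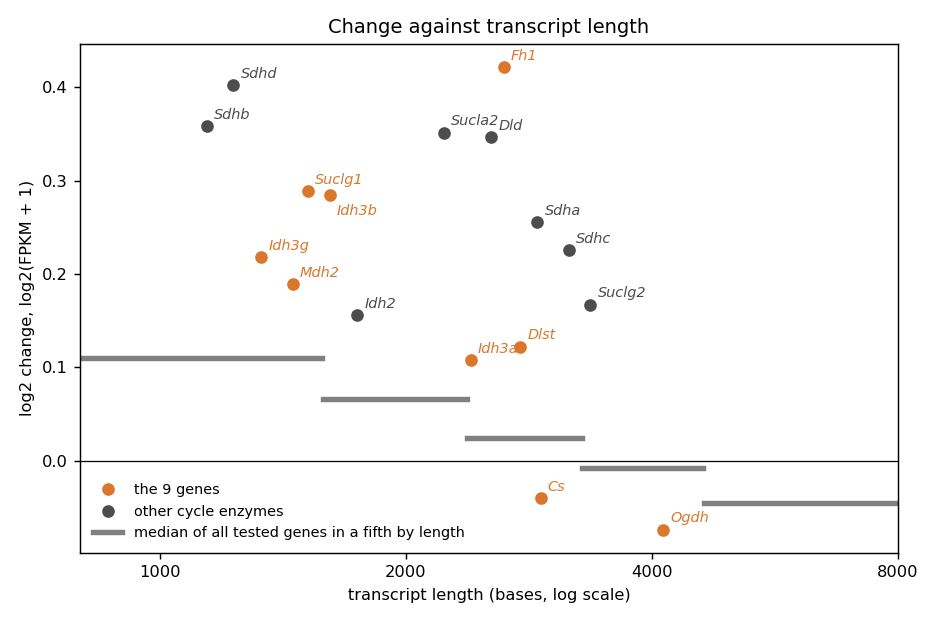
Log2 change, lipophagy minus control (y axis), against transcript length in bases (x axis, log scale) for the 9 genes (orange) and 8 further cycle enzymes (dark grey). Thick grey lines are the median of all tested genes in each quintile of length, falling from 0.11 to -0.045. Fh1 and Cs have similar lengths and lie far apart.

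Livers hold several cell types, and in bulk RNA fewer cells of a type and less RNA per cell cannot be told apart. Stellate cell markers were lower in 7 of 8 genes, 5 of them without overlap against 10.8% of all tested genes, with a summed level of 26.6 to 28.7 FPKM in control and 19.5 to 20.7 FPKM in lipophagy livers. Macrophage markers were lower in 6 of 8, and 4 (Cd68, Csf1r, Cx3cr1 and Ccr2) did not overlap, while their sums did (415 to 580 and 414 to 538 FPKM), being mostly Lyz2. Bile duct markers were lower in 5 of 5 (137 to 247 and 92.0 to 196 FPKM), and lymphocyte markers in 2 of the 3 tested, with overlapping sums (3.43 to 4.07 and 2.88 to 3.46 FPKM). Over all 7 lymphocyte markers listed the sums were 4.58 to 5.56 and 3.50 to 4.30 FPKM. Endothelial markers were higher in 5 of 6 (21.3 to 27.2 and 25.6 to 41.5 FPKM), and hepatocyte markers in 6 of 8. With the same sum of FPKM, 2 of 6 endothelial and 4 of 8 hepatocyte markers were higher, against 2595 of the 11493 tested genes. Then 1 of 8 stellate cell, 0 of 8 macrophage, 0 of 5 bile duct and 0 of 3 lymphocyte markers were higher. No marker was at 0 in any liver, and none passed the adjustment (lowest adjusted p = 0.103, limma). The highest and lowest log2 changes were 0.995 (Tat) and -0.062 (Apoa1) among hepatocyte markers, 0.25 (Lrat) and -0.75 (Col1a1) among stellate cell markers, and 0.17 (Clec4f) and -0.38 (Cd68) among macrophage markers. They were 0.43 (Clec4g) and -0.11 (Pecam1) among endothelial, -0.060 (Sox9) and -0.71 (Spp1) among bile duct, and 0.0018 (Cd3g) and -0.26 (Nkg7) among lymphocyte markers. The part of cell composition in the changes of the 9 genes was not tested.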

How the data were processed

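Liver RNA of 3 control and 3 lipophagy-induced mice had been sequenced from stranded poly(A) libraries with paired 100 bp reads, on a HiSeq instrument per the labels and a NovaSeq instrument per the methods. The authors deposited FPKM per gene symbol and liver. The submitters' processing notes name TopHat2 2.0.13, Bowtie2 2.2.3, SAMtools 0.1.19, Cufflinks 2.2.1 and mm10, and the annotation is not given in the sources used here. Of the symbols, 27 had become dates, none of them among the genes described.

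Depth was estimated from low FPKM values, which are whole multiples of 1 fragment, with GENCODE M21 transcript lengths less an assumed 150 bases. Such estimates cover counting error only.

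From the FPKM, log2(FPKM + 1) was fitted with limma 3.58.1 in R 4.3.3 (trend, no covariates, two-sided), with Benjamini-Hochberg adjustment over the 11493 genes that averaged 0.5 FPKM or more. A change on this scale understates that of low genes. Ratios were taken from FPKM without a pseudocount and compared with exact permutation tests (scipy 1.17.1). Python 3.11.15 with pandas 2.3.3 and numpy 2.4.6 was used for tables. Alternatives were pseudocounts, filters, scalings, no trend, quality weights, a block for the replicate number, leaving out each liver and, chosen after seeing the data, removal of trends on transcript length and GC content. The fit was tested on simulated data with known changes, all larger than those of the 9 genes, where nearly all were recovered and the share of false calls lay somewhat above the threshold of 0.05. The labels do not say how the 3 livers of a group were obtained, so p-values measure the spread between these samples.

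The 9 genes and all gene lists were chosen with earlier results of these data known. Genes named are the 9, 8 further enzymes of the cycle, in each further list the largest rise and the largest fall or smallest change, and the 5 genes most like the mean of the 9. Named outside this rule were Mdh1 as a partner in a ratio, Nop56 for its overlap with Idh3b, Alb and Ttr as liver markers, and, after their values were seen, Pdk1, Pdk2, Csf1r, Cx3cr1, Ccr2 and Lyz2. Of the planned items, 1 enzyme and 1 ratio are not reported here.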

Additional observations from a re-analysis of the deposited data

How the results depend on the processing

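The count of the 9 genes with an adjusted p below 0.05 was 0 in every fit tried (limma), and the number that were higher stayed between 5 and 8. The median log2 change of the 9, 0.19 as reported, was 0.031 with quantile normalization, 0.0068 with the same sum of FPKM, 0.14 with the length and GC trend removed, and 0.15 to 0.28 with each liver left out, the lowest without lipophagy liver 2 and the highest without lipophagy liver 3. Pseudocounts, filters, the same median, no trend and quality weights kept every direction. Dlst turned with quantile normalization (-0.020) and with the same sum (-0.058), as did Idh3a (-0.064), Idh2 (-0.025) and Suclg2 (-0.014) with the same sum, which lowers each lipophagy liver relative to the controls by construction. With each liver left out Cs ranged from -0.099 to 0.024, the ratio of Idh3a to Idh3g from -0.25 to 0.030 and that of Idh3a to Idh2 from -0.13 to 0.13 (log2, lipophagy minus control). These ratios turned positive without lipophagy liver 1, and the latter also without control liver 2 (0.010), and the cause was not tested.

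Whether the replicate numbers pair the livers cannot be told from 3 livers in each group. Deviations of same-numbered livers correlated at 0.25, 0.23 and -0.057. Those of livers with different numbers correlated at -0.387 to 0.251, the highest between control liver 3 and lipophagy liver 2. With the replicate block 0 of the 9 passed the adjustment, the median was 0.19, and 43 of all tested genes passed, against 3 without it. That count over all genes was 104 with the same sum, 39 with quality weights, 5 with the length and GC trend removed, 1 without a filter, 2 with a mean of at least 0.1 FPKM, and with single livers left out 1 (control liver 3), 2 (control liver 1 or lipophagy liver 1), 5 (lipophagy liver 2), 7 (control liver 2) and 11 (lipophagy liver 3). At an unadjusted p below 0.05 the 9 genes numbered 4 as reported, 1 with quantile normalization (Fh1), 3 with the same sum (Fh1 higher, and Cs and Ogdh lower as 21.8% of all tested genes were), and 3 to 5, all higher, in the other fits. With 3 livers in each group, the printed intervals give the precision of each change.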
